A study of Homo sapiens with 17 samples.

Results

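The intergenic ATAC-seq peaks that lie within 50 kb of an annotated gene start were examined in HepG2 cells grown with 3 doses of 5-azacytidine. They were taken from the deposited peak table by 2 columns alone, an annotation of exactly "Distal Intergenic" and a distance below 50000 bp to the start of the annotated gene on either side. Neither column holds a measured signal. The rule gave 8560 of 58372 peaks with counts (14.7%), out of 10283 intergenic peaks in all. The other 1723 intergenic peaks lay at 50 kb or more.

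ATAC-seq uses a transposase that cuts and tags DNA where it is not covered by nucleosomes, so the number of sequenced fragments at a site reads how open it is. Open intergenic DNA near genes includes enhancers, which bind transcription factors and can raise transcription from a distance, as well as insulator sites and starts of non-coding transcripts. 5-azacytidine is a cytidine analogue that cells insert into DNA and RNA, where it binds and depletes the DNA methyltransferases, so dividing cells lose methylation at CpG dinucleotides. It is also toxic to cells.

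HepG2 is an established line from a human liver tumour that keeps many hepatocyte traits. Cells were kept for 4 days in medium without drug (0 µM) or with 2 µM or 10 µM 5-azacytidine, renewed each day. The ATAC-seq data comprise 3 untreated libraries, 3 from the 2 µM dose and 2 from the 10 µM dose, and total RNA was sequenced in 9 other libraries, 3 for each dose. The labels call them replicates without saying whether they came from separate cultures, so p-values measure the spread between these libraries only, which may be technical. Counts are from bulk cells, in which fewer cells with an open site and less opening per cell cannot be told apart.

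Total counts in peaks ran from 2896671 to 7864321 per ATAC library, and were lowest in 2 µM replicates 2 and 1 (2896671 and 2907068). RNA libraries held 35553052 to 46430168 counts in genes. Among the members, both 10 µM libraries stood apart from the rest. Across members, log2 CPM (CPM is a peak’s count relative to the TMM-scaled total of its library, here with a prior count of 2) correlated at 0.945 to 0.962 between 0 µM libraries, at 0.903 to 0.929 between 2 µM libraries and at 0.933 between the 10 µM libraries. The same measure was 0.807 to 0.881 between 0 and 2 µM, 0.233 to 0.383 between 2 and 10 µM, and 0.027 to 0.137 between 0 and 10 µM. These are correlations over 8560 peaks of shared libraries and are given as a description. The peak set is common to all doses and holds sites with next to no counts at 0 µM.

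Each member was 501 bp long. Distances to the annotated start ran from 227 to 49997 bp with a median of 11925.5 bp, and 5240 members (61.2%) lay before the start and 3320 after it. Together they were assigned to 4759 genes, of which 2851 had 1 member and 244 had 5 or more, holding 1544 members. In all, 3911 members (45.7%) had another member within 5000 bp. The median level was 11.9 CPM, against 18.9 CPM for promoter peaks. The name "intergenic" follows the deposited annotation. By the RefSeq gene table of GRCh38.p14, 1326 members (15.5%) overlapped a gene, 364 of them a protein-coding one.

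A small number of members hold all or part of the window around a RefSeq transcript start, for which a sequence was at hand. Of all members, 110 held part of a RefSeq start window (250 bases before to 50 bases after a start, 300 in all), and 95 held at least 150 bases of one. The 5 windows printed here are those of the 3 largest rises and of 2 of the 3 largest falls at 10 µM against 0 µM among members that hold a whole window and reach 5 CPM in the more open group. They are shown for their CpG sites and for the place of the AP-1 element in the members that opened. AP-1 is the FOS and JUN family dimer that binds enhancers after stress and growth signals. All are written 5′ to 3′ on the strand of the transcript, from RefSeq on GRCh38.p14, with capitals for CpG sites and for matches to TGANTCA, the AP-1 element.
The 3 that opened were:
LOC124903164: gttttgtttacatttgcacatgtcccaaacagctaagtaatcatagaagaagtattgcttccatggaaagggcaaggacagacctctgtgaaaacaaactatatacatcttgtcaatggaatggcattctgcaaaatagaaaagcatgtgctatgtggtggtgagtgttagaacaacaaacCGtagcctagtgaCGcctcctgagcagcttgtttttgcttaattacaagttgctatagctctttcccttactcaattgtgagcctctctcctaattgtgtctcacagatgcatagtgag
LOC124902736: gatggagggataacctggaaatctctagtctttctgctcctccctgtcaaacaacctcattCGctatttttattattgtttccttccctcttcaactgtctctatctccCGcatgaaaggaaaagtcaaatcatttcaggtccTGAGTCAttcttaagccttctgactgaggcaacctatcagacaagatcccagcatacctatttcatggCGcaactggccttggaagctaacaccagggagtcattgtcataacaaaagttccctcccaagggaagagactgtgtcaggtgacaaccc
LOC105375061: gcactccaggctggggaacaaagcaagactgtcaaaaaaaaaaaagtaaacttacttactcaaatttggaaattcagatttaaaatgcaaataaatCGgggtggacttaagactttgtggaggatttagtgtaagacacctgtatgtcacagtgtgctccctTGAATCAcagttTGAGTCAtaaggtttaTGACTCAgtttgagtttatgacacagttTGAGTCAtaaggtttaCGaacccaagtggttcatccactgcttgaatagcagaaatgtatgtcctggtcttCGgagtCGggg
The 2 that closed were:
LOC105371291: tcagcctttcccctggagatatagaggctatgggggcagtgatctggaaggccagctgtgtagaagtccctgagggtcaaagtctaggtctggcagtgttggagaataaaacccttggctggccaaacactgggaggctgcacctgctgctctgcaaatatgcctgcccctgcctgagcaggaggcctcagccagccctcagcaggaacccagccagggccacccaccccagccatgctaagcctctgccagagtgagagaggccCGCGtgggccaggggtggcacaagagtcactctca
LOC101927995: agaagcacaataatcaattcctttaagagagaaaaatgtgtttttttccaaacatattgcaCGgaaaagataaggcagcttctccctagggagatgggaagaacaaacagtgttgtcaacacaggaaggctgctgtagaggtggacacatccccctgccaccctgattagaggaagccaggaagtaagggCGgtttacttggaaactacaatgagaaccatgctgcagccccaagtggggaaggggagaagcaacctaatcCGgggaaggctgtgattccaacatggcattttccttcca

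The first window, at chr13:42747407-42747706 on the minus strand, has 2 CpG and no AP-1 match. Its peak is annotated to FAM216B, and its levels were 2.43, 1.5 and 1.89 CPM at 0 µM, 4.12, 1.03 and 2.73 CPM at 2 µM, and 21.5 and 25.5 CPM at 10 µM. Only the 10 µM libraries were high, and the log2 change at 10 µM against 0 µM was 3.63 (adjusted p = 1.06e-12, edgeR). The window of LOC124902736 (chr11:100676888-100677187, plus strand) has 3 CpG and 1 AP-1 match, and the peak, annotated to ARHGAP42, went from 3.88, 1.77 and 3.22 CPM at 0 µM to 29.0 and 19.6 CPM at 10 µM (log2 change 3.14, adjusted p = 3.62e-12). The window of LOC105375061 (chr6:42224489-42224788, plus strand) has 4 CpG and 4 AP-1 matches within a short repeated stretch. Its peak, annotated to MRPS10, was at 3.15, 2.99 and 3.03 CPM at 0 µM, 5.50, 7.22 and 4.50 CPM at 2 µM and 14.5 and 19.4 CPM at 10 µM. Levels did not overlap between any of the doses, and the peak rose at 2 µM (0.83, adjusted p = 0.0384) and at 10 µM (2.44, adjusted p = 6.21e-10).

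The peak at the window of LOC105371291 (chr16:57606973-57607272, minus strand, 2 CpG), annotated to ADGRG1, went from 35.9, 30.1 and 26.9 CPM at 0 µM to 4.02 and 5.87 CPM at 10 µM (log2 change -2.68, adjusted p = 3.34e-12). Its 2 µM libraries were at 24.1, 18.2 and 21.4 CPM, and both 10 µM libraries were far below every other library. The peak at the window of LOC101927995 (chr3:30349541-30349840, plus strand, 3 CpG) moved less, from 9.70, 10.5 and 11.4 CPM to 2.82 and 4.13 CPM (-1.65, SE 0.28, adjusted p = 5.57e-06).

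Over the 95 windows the letters differed by call, as a description without a test. TGANTCA was present in 12 of 26 windows in members that rose at 10 µM (46.2%), in 3 of 28 in members that fell (10.7%) and in 7 of 41 in members that did not pass (17.1%). Among all 35116 RefSeq windows it was present in 7.71%. TGTTTAC, a core of sites for the liver factors FOXA1 and FOXA2, was found in 4 of the 26 windows that rose and in none of the other 69, against 3.42% of all windows. TTGCNNAA, a C/EBP core, was in 6 of the 26, 2 of the 28 and 1 of the 41 windows, against 10.5% of all. GGAATG, a TEAD core, was in 15.4%, 35.7% and 24.4% of the windows that rose, fell and did not pass, against 14% of all, and AGGNGGC, a part of the CTCF site, in 23.1%, 39.3% and 48.8%, against 35.9% of all. CAAAGTCCA, a form of the site of the liver factor HNF4A, was in none of the 95 and in 0.384% of all. Each motif was searched on both strands, no motif contains another, and a match is not a bound site. The median number of CpG was 5.5 in windows that rose and 4.5 in windows that fell, but 15 in those that did not pass, against 14 over all windows. GC content had medians of 49.7%, 57.2% and 66.3% in that order. These 95 windows are few, sit at transcript starts, and do not stand for the other members.

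At 2 µM against 0 µM, the balance of opening and closing members depended on which libraries entered the fit. With all libraries, the test found 1275 members that rose (14.9%) and 837 that fell (9.78%), against 15.5% and 7.30% of all 58372 peaks tested. The median log2 change was 0.05 over members and 0.02 over all peaks. It was 0.0007 and -0.03 in a fit on the 0 and 2 µM libraries only, so the medians moved with the fit too. The falls depended on what shared the fit: with only the 0 and 2 µM libraries, 1247 members rose and 1233 fell, and without 10 µM replicate 1 or replicate 2, 1256 and 1252 fell. Without 0 µM replicate 2, falls outnumbered rises, with 660 rises and 687 falls. There were 849 rises and 553 falls without 2 µM replicate 2, and 1045 rises and 422 falls without 2 µM replicate 3.

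At 10 µM against 0 µM, 5918 members passed the test, in near-equal numbers up and down under TMM scaling. With scaling by total counts alone, 2783 rose and 3182 fell. Of the 8560 members, 2932 rose (34.3%) and 2986 fell (34.9%), against 29.9% and 27.6% of all peaks. Changes were large, with 2096 rises and 1887 falls beyond 1 on the log2 scale. The median was -0.06 over members and 0.05 over all peaks. At 10 µM against 2 µM, 2574 members rose (30.1%) and 2788 fell (32.6%), against 27.5% and 27.6% of all peaks. The spread (SD) of the log2 change over members was 0.54 at 2 µM and 1.55 at 10 µM, both against the same 0 µM libraries.

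Other kinds of peaks gave other balances in the same fit. At 10 µM against 0 µM, 20.5% of promoter peaks rose and 14.9% fell, the shares in later introns were 37.7% and 37.7%, and in first introns 34.4% and 31.4%. Intergenic peaks at 50 kb or more differed from the members mainly in their rises, with 51.8% up and 30.8% down and a median log2 change of 0.66. At 2 µM the farther peaks had 19.3% rises and 13.4% falls, and later introns 24.6% and 9.90%. Levels per library were then compared between the doses for the members against these classes.

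**Figure D1:**
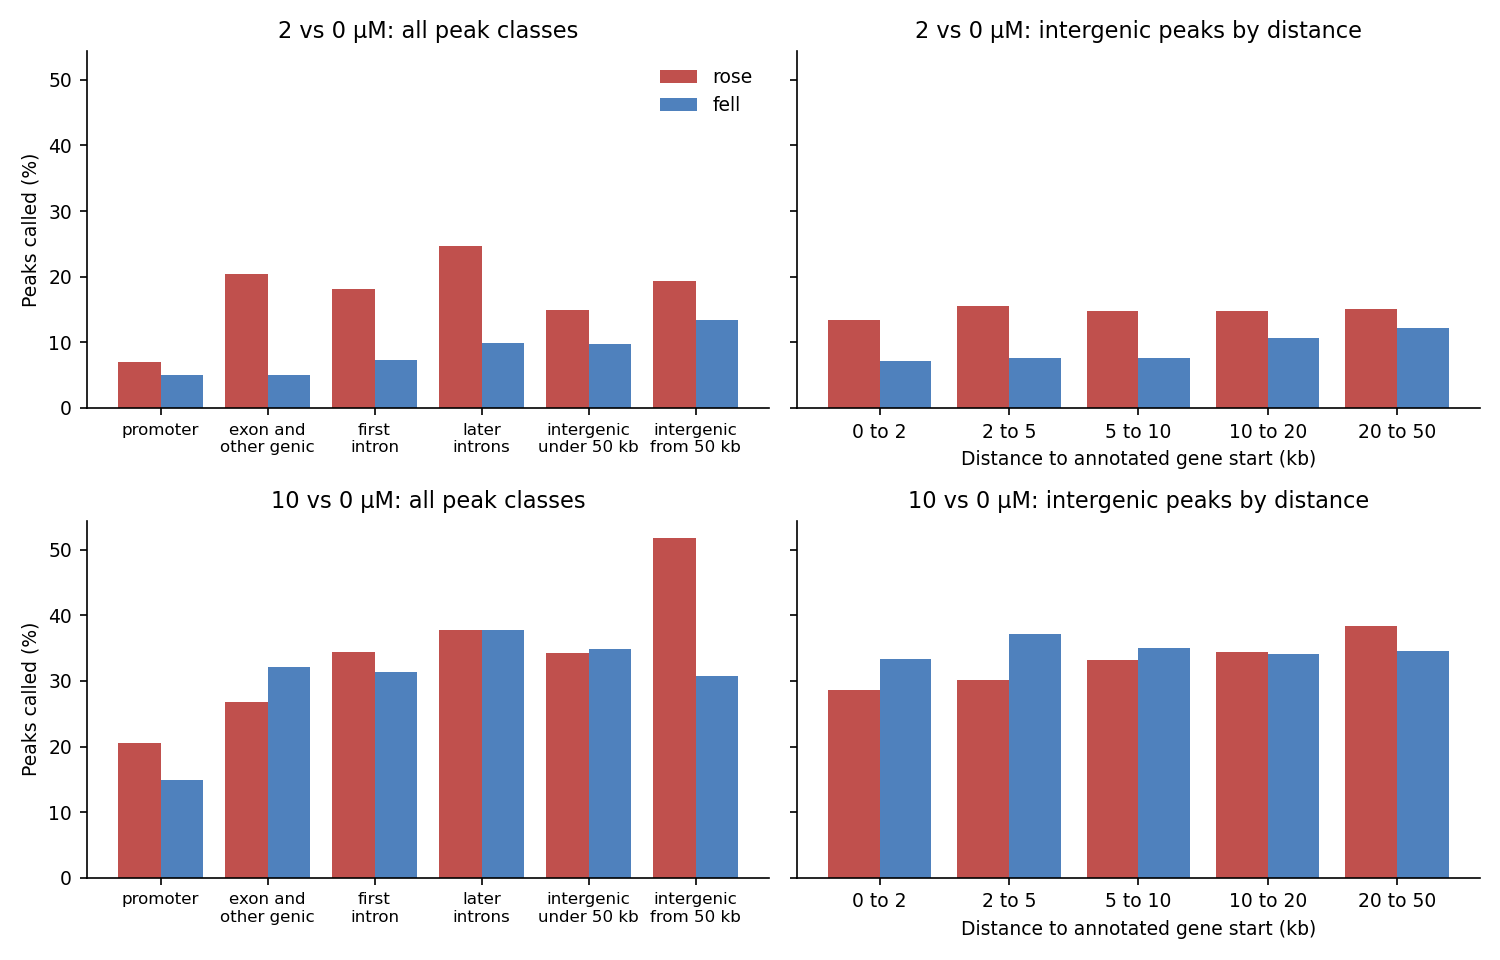
Share of peaks (percent, y axis) that rose or fell in the edgeR test at 2 µM (top) and at 10 µM (bottom) against 0 µM, by annotation class and, for the members, by distance to the annotated start. At 10 µM the members rose and fell in near-equal shares (34.3% and 34.9%), while intergenic peaks at 50 kb or more rose in 51.8%, and member rises went from 28.6% under 2 kb to 38.4% at 20 to 50 kb.

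Over the peaks of this set, members were on average more open in untreated cells than intergenic peaks farther away, and at 10 µM they were not. The mean log2 CPM of members minus that of intergenic peaks at 50 kb or more was 0.63, 0.68 and 0.65 in the 0 µM libraries, 0.53, 0.57 and 0.60 in the 2 µM libraries, and -0.01 and 0.03 in the 10 µM libraries. Values of the 3 doses did not overlap, and an exact permutation test over the 8 libraries gave p = 0.00357 (560 assignments, BH-adjusted 0.025 over 7 measures). The peak set is common to all doses, so sites found open at only some doses enter the mean of every dose. The part of this choice of peaks in the class and distance differences was not tested. The lead over later introns was 0.19 ± 0.01, 0.05 ± 0.02 and 0.16 ± 0.06 (SD, n = 3, 3 and 2; exact permutation p = 0.0107, adjusted 0.025). Against all other peaks together the members lay at -0.23, -0.25 and -0.25, with no shift that passed (exact permutation p = 0.818, adjusted 0.818). The gap to promoter peaks was -0.74, -0.61 and -0.72 (exact permutation p = 0.325). It was widest in the deepest library of each dose (-0.79, -0.73 and -0.81), and the relation of the class differences to depth was not tested. The members' share of all counts in peaks was 12.4% ± 0.203, 12.5% ± 0.412 and 12.3% ± 0.405 (exact permutation p = 0.721, adjusted 0.818). That share followed depth: over the 8 libraries it correlated with log2 counts at r = -0.94 (permutation p = 0.00067, adjusted 0.00134) and rho = -0.952 (permutation p = 0.00114), and at r = -0.967 without the 2 libraries farthest from the median depth. No pair of doses could reach an exact p under 0.1 with these numbers of libraries.

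Members near a gene and members far from it also drew closer at 10 µM. The mean log2 level of members at 20 to 50 kb minus that of members under 5 kb was -0.34 ± 0.01 at 0 µM, -0.37 ± 0.03 at 2 µM and -0.13 ± 0.03 at 10 µM (SD, n = 3, 3 and 2; exact permutation p = 0.0143, adjusted 0.025), a measure added after the data were seen. The spread of log2 CPM over the members of a library was 1.13 ± 0.06, 0.93 ± 0.01 and 1.07 ± 0.06 (exact permutation p = 0.0143, adjusted 0.025). Promoter peaks were also lowest at 2 µM (0.93, 1.05 and 0.97, then 0.83, 0.85 and 0.83, then 1.04 and 0.94). The measure was also added later, and its correlation with depth over the 8 libraries was r = 0.545 (permutation p = 0.163) and rho = 0.5 (permutation p = 0.216), and r = 0.085 without the 2 libraries farthest from the median depth.

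**Figure D2:**
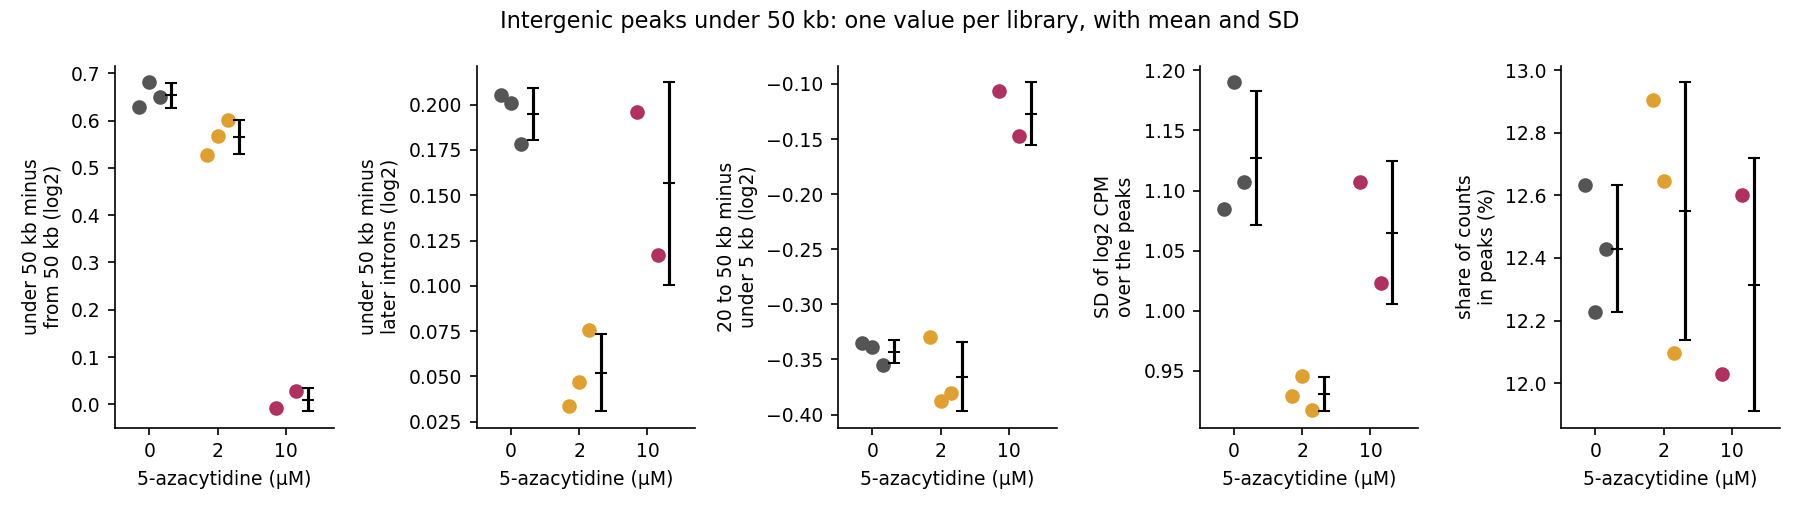
Per-library measures of the members (points, 1 per ATAC library, with mean and SD as bars) at 0, 2 and 10 µM: the share of counts in percent, 3 differences of mean log2 CPM and the SD of log2 CPM over members. The difference from intergenic peaks at 50 kb or more sits between 0.53 and 0.68 in the 0 and 2 µM libraries and at -0.01 and 0.03 at 10 µM.

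Within the members, the share that rose at 10 µM grew with distance while the share that fell did not. Of 576 members under 2000 bp, 28.6% rose and 33.3% fell. The shares were 30.1% and 37.1% at 2000 to 5000 bp, 33.1% and 35% at 5000 to 10000 bp, 34.5% and 34.1% at 10000 to 20000 bp, and 38.4% and 34.6% at 20000 to 50000 bp. At 2 µM it was the falls that grew, from 7.12% under 2000 bp to 12.2% at 20000 to 50000 bp. Members before the start rose in 36.7% and fell in 34.1% at 10 µM, and members after it in 30.4% and 36.2%.

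The calls lay differently at low and at high levels. Members were put in 4 equal classes by their mean CPM over all libraries. In the lowest class (2.57 to 8.73 CPM), 57.0% rose and 26.2% fell at 10 µM, with a median log2 change of 1.22. In the highest class (17.4 to 114 CPM), 25.2% rose and 38.7% fell, and the 2 middle classes had 29.9% and 24.9% rises with 37.6% and 37.0% falls. The mean level and the change come from the same libraries, so these shares are a description of where the calls lie.

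The largest rises at 10 µM were at peaks with next to no counts in untreated cells. The peak 10384 bp before POU1F1, the gene of a pituitary transcription factor, lies at chr3:87286968-87287468. The untreated libraries held 0, 1 and 2 counts there, the 2 µM libraries 2, 3 and 3, and the 10 µM libraries 66 and 45. Only the 10 µM libraries held more than 3 counts, and their rate was 51.4 times that at 0 µM, with an exact 95% interval of 17.2 to 253 that covers counting error only (adjusted p = 2.43e-11 in the edgeR test). The peak 36643 bp past the start of FMR1NB, a cancer-testis antigen gene (chrX:148043459-148043959), climbed over both doses, from 0.970, 0.408 and 0.189 CPM to 3.09, 4.47 and 2.32 CPM and then 17.0 and 13.7 CPM. The log2 change was 2.6 at 2 µM (adjusted p = 0.000302) and 4.95 at 10 µM (adjusted p = 1.08e-12).

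KLF15, a transcription factor of liver and muscle metabolism, has a member 3442 bp before its start at chr3:126304655-126305155. Its levels were 0.970, 0.408 and 0.758 CPM at 0 µM, 3.09, 4.13 and 3.41 CPM at 2 µM, and 28.7 and 23.9 CPM at 10 µM. The 3 doses did not overlap, and the log2 changes were 2.37 at 2 µM (SE 0.42, adjusted p = 0.000101) and 5.28 at 10 µM (SE 0.30, adjusted p = 3.14e-15). The RNA of KLF15 went the other way, by -1.58 at 2 µM (adjusted p = 0.0102) and -2.62 at 10 µM (adjusted p = 2.06e-05). The members near CTB-1I21.1 (5.17, SE 0.34, adjusted p = 5.61e-14) and PRICKLE2-AS1 (4.75, SE 0.25, adjusted p = 6.61e-16) rose at 10 µM without passing at 2 µM. The latter had 1.94, 1.09 and 1.14 CPM at 0 µM, 2.06, 1.72 and 2.18 CPM at 2 µM, and 37.3 and 34.6 CPM at 10 µM. The RNA of POU1F1, FMR1NB, CTB-1I21.1 and PRICKLE2-AS1 did not reach the count filter and was not tested.

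HMX3, a homeobox gene of the inner ear and nervous system, had a rise in both assays. The member at chr10:123129443-123129943, 6027 bp before its start, was at 1.21, 0.272 and 0.189 CPM at 0 µM, 1.03, 0.688 and 2.18 CPM at 2 µM, and 13.7 and 17.6 CPM at 10 µM (log2 change 4.94, SE 0.41, adjusted p = 3.97e-12). The 0 and 2 µM libraries overlapped, and the 2 µM change of 1.65 (adjusted p = 0.0498) did not pass without 0 µM replicate 2, without 0 µM replicate 3 or without 2 µM replicate 3. This change also did not pass with DESeq2 (adjusted p = 0.115) or with the replicate number as a block in edgeR (adjusted p = 0.111). A member 35155 bp before the start rose by 2.94 at 10 µM (SE 0.30, adjusted p = 5.06e-10). HMX3 RNA averaged 0.0257 ± 0.0445 CPM without drug, 0.997 ± 0.577 CPM with 2 µM and 13.5 ± 3.59 CPM with 10 µM (SD, n = 3), and it rose at both doses (adjusted p = 0.00393 and 2.06e-06 in edgeR).

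The largest falls ended near 0 at 10 µM. The member 14267 bp past the start of LINC01337 had 44, 65 and 46 counts in the untreated libraries, 22, 20 and 35 in the 2 µM libraries and 1 and 1 in the 10 µM libraries, a rate 55.7 times higher at 0 µM (exact 95% interval 15.2 to 464, counting error only, with an edgeR adjusted p = 4.72e-11 for the fall). The member 9537 bp before SCGN, the gene of a calcium-binding protein of endocrine cells (chr6:25642164-25642664), was at 19.9, 18.1 and 19.1 CPM, then 11, 11 and 8.73 CPM, then 0.402 and 0.870 CPM. The log2 change was -0.93 at 2 µM (adjusted p = 0.000516) and -4.97 at 10 µM (SE 0.34, adjusted p = 1.27e-13). Every library of a higher dose lay below every library of a lower one.

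Members near LOC124900344 (-5.23, SE 0.39, adjusted p = 6.15e-13), FEZ2 (-5.09, SE 0.44, adjusted p = 9.16e-12) and SLC1A7 (-4.81, SE 0.27, adjusted p = 2.35e-15) also fell at 10 µM. SLC1A7 encodes a glutamate transporter, and its RNA fell from 4.02 ± 5.19 CPM at 0 µM to 0.442 ± 0.0716 CPM at 10 µM (SD, n = 3, adjusted p = 0.00658 in edgeR). FEZ2 RNA rose (0.95, adjusted p = 0.00247). SPP1, the gene of the secreted protein osteopontin, had a member 33656 bp before its start that went from 9.22, 7.61 and 9.66 CPM at 0 µM to 0.268 and 0.652 CPM at 10 µM (-4.31, adjusted p = 7.28e-10), and its RNA fell by 5.13 on the log2 scale (adjusted p = 1.15e-07). The 2 µM libraries of that member were at 7.90, 9.28 and 5.59 CPM and overlapped those at 0 µM.

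**Figure D3:**
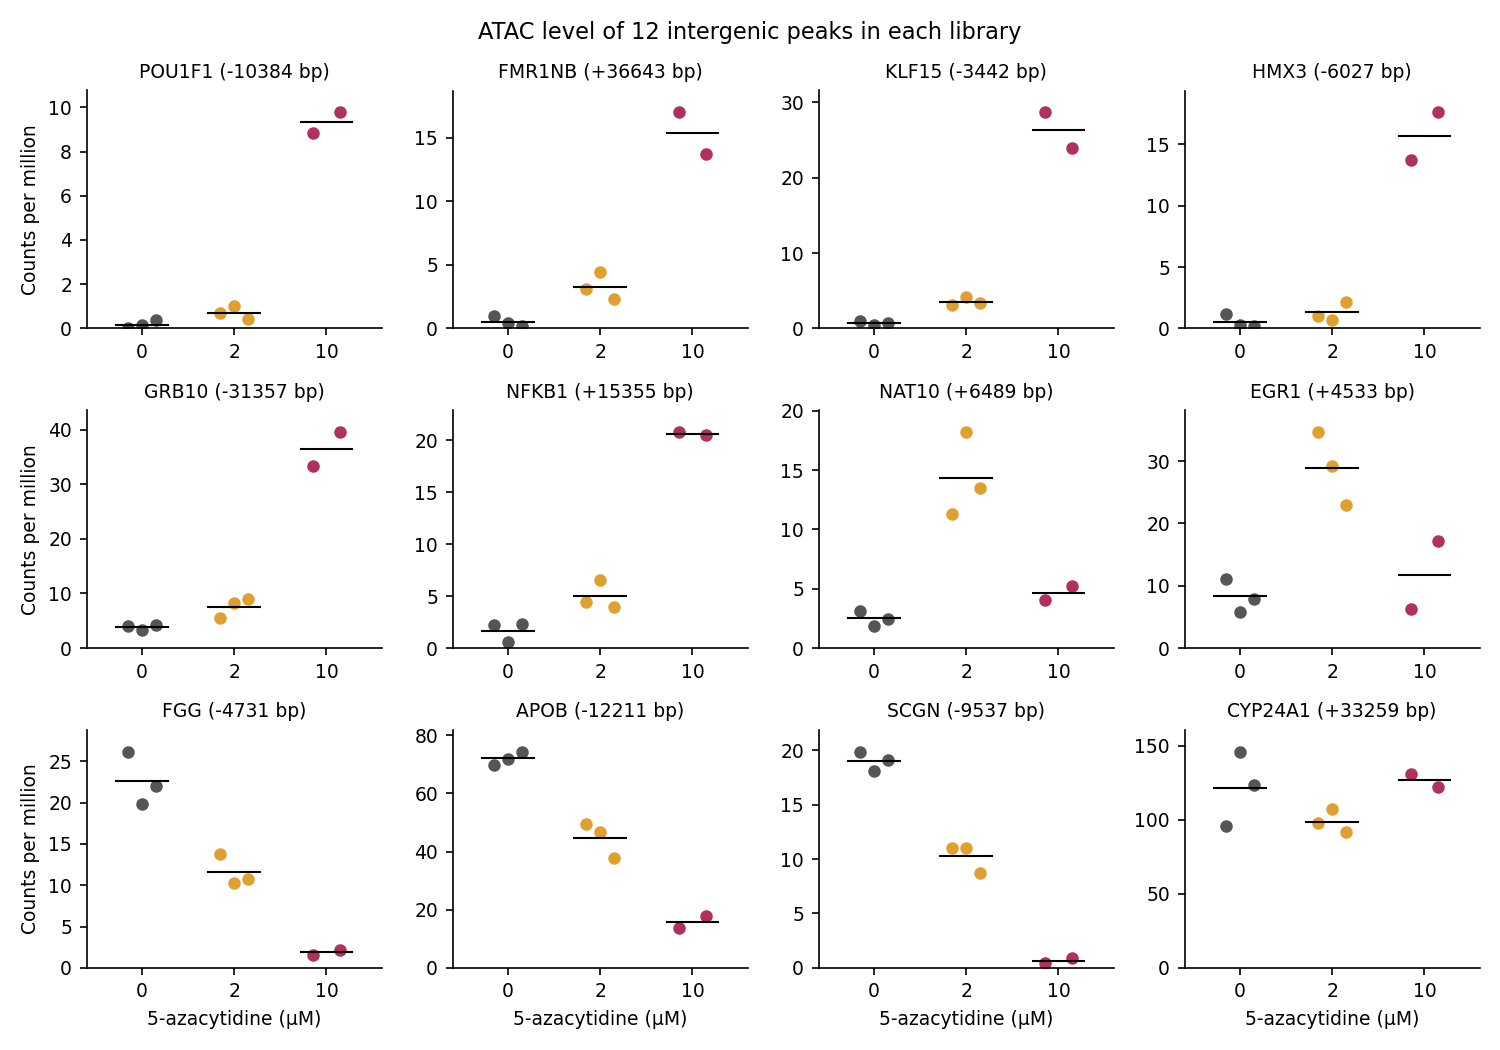
ATAC level in CPM (linear y axis from 0, its own scale in each panel) of 12 members in each library at 0, 2 and 10 µM, with points for libraries, black lines for means and the distance from the annotated start in brackets. POU1F1, FMR1NB, KLF15, HMX3, GRB10 and NFKB1 are highest at 10 µM, NAT10 and EGR1 at 2 µM, FGG, APOB and SCGN fall with each dose, and CYP24A1 stays between 91.4 and 146 CPM.

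Some members were most open at the middle dose. The member 6489 bp from the start of NAT10, an RNA acetyltransferase gene (chr11:34148476-34148976), had 3.15, 1.90 and 2.46 CPM at 0 µM, 11.3, 18.2 and 13.5 CPM at 2 µM, and 4.02 and 5.22 CPM at 10 µM. The 2 µM libraries were above all others, with changes on the log2 scale of 2.55 for 2 µM against 0 µM (SE 0.27, adjusted p = 4.83e-08) and of -1.65 for 10 µM against 2 µM (adjusted p = 5.31e-06). Its rise at 10 µM against 0 µM (0.90, adjusted p = 0.0229) was lost when 10 µM replicate 2, or 0 µM replicate 2 or 3, was left out. That rise was also lost with DESeq2 and in fits on the 0 and 10 µM libraries only. EGR1, an immediate early transcription factor gene, had a member at chr5:138470012-138470512 with 11.2, 5.85 and 7.95 CPM, then 34.7, 29.2 and 22.9 CPM, then 6.31 and 17.2 CPM. The log2 change at 2 µM was 1.82 (SE 0.25, adjusted p = 2.72e-06), and the 10 µM libraries overlapped those at 0 µM (0.46, adjusted p = 0.19).

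The same order held for members near MIR4686 (2.43 at 2 µM, adjusted p = 4.78e-07, and 0.19 at 10 µM, adjusted p = 0.725), the stress cytokine gene GDF15 (1.59, adjusted p = 2.47e-06, and 0.40, adjusted p = 0.182, at 2982 bp) and FOXA1, a pioneer factor of liver enhancers (1.49, adjusted p = 7.34e-05, and 0.06, adjusted p = 0.881). In each of them 10 µM against 2 µM was a fall, with log2 changes of -2.24, -1.19 and -1.43 (adjusted p = 6.73e-07, 5.79e-05 and 8.16e-05). The RNA of NAT10, EGR1, GDF15 and FOXA1 did not pass at 2 µM (adjusted p = 0.395, 0.687, 0.352 and 0.261). The member near UBAC1 rose at 2 µM (2.25, adjusted p = 3.6e-07) and at 10 µM (1.96, adjusted p = 4.62e-07).

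Of the largest falls at 2 µM, the member near LOC124900283 had log2 changes of -2.34 at 2 µM (adjusted p = 6.37e-06) and -4.6 at 10 µM (adjusted p = 1.08e-09). The member 15519 bp before ASXL1, a polycomb-associated gene mutated in myeloid leukaemia, had 12.9, 12.5 and 13.6 CPM at 0 µM, 2.41, 3.44 and 3.82 CPM at 2 µM, and 2.41 and 3.91 CPM at 10 µM. All 5 treated libraries were below the untreated ones, with log2 changes of -1.93 at 2 µM (adjusted p = 1.51e-06), -2.09 at 10 µM (adjusted p = 6.89e-08) and -0.16 between the doses (adjusted p = 0.717). The member near SNORA75 was lowest at 2 µM (-1.87, adjusted p = 8.11e-06), and its 10 µM change missed the threshold (-0.40, adjusted p = 0.164).

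Gene groups are given by the members annotated to their genes, beside the shares of all peaks (29.9% up, 27.6% down, median 0.05 at 10 µM against 0 µM), and the groups were chosen with earlier results of these data known. For secreted liver proteins and liver transcription factors, 22 of 53 genes had 55 members, of which 8 rose and 32 fell at 10 µM, with a median log2 change of -0.67. There were 5 rises when 10 µM replicate 2, or 0 µM replicate 1 or 3, was left out. The member 4731 bp before FGG, which encodes a fibrinogen chain (chr4:154617698-154618198), was at 26.2, 19.8 and 22.0 CPM at 0 µM, 13.7, 10.3 and 10.8 CPM at 2 µM, and 1.61 and 2.17 CPM at 10 µM. No doses overlapped, and it fell at 2 µM (-0.97, adjusted p = 0.000205) and 10 µM (-3.60, SE 0.27, adjusted p = 7.44e-13). FGG RNA was 1735.5 ± 514 CPM at 0 µM and 20.2 ± 5.54 CPM at 10 µM (SD, n = 3, log2 change -6.43, adjusted p = 1.01e-07 in edgeR).

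APOB, the structural protein of very low density lipoprotein, had a member at chr2:21056284-21056784, 12211 bp before its start, with 69.8, 71.9 and 74.4 CPM at 0 µM, 49.5, 46.8 and 37.8 CPM at 2 µM, and 13.5 and 17.8 CPM at 10 µM. It fell at each dose (-0.71, adjusted p = 0.000229, and -2.22, SE 0.17, adjusted p = 8.46e-13). The member 45123 bp past the start, 21.1, 15 and 17.6 CPM at 0 µM, overlapped at 2 µM (30.6, 18.2 and 15.1 CPM) and fell to 1.61 and 2.61 CPM at 10 µM (-3.12, adjusted p = 5.31e-10). Further falls at 10 µM were near FGB, another fibrinogen chain (-2.81), SERPINA6, which encodes the cortisol carrier (-2.55), ITIH1, an inter-alpha-trypsin inhibitor chain (-2.48), and SERPINA1, which encodes alpha-1 antitrypsin (-2.37 and -2.0 at neighbouring members), with adjusted p of at most 9.87e-11 for SERPINA6, FGB and ITIH1 and 8.7e-10 for SERPINA1. Hepatocyte marker RNA moved with this group: the summed level of 7 markers, of which APOB made up 13888 CPM on average at 0 µM, ran from 14997 to 25164 CPM at 0 µM, 8251 to 13964 CPM at 2 µM and 550 to 796 CPM at 10 µM, and none was at 0. Of 13 members near hepatocyte marker genes, 10 fell and 1 rose at 10 µM. The summed RNA of 5 cholangiocyte markers ran from 388 to 508 CPM at 0 µM, 498 to 982 CPM at 2 µM and 495 to 1192 CPM at 10 µM. The marker with the most RNA averaged 187, 533 and 843 CPM at these doses, and 2 of the 5 were under 1 CPM at each. The sum therefore does not show the markers rising as a group. Both members near genes of this list rose at 10 µM (KRT19 2.3, adjusted p = 1.21e-12, and CFTR 2.94, adjusted p = 7.64e-09, named after their values were seen). Sums of endothelial and of fibroblast and stellate markers reached at most 24.4 CPM in any library and 0.95 CPM at 10 µM. Leukocyte markers summed to 2335 to 3455 CPM at 0 µM and 58.0 to 89.7 CPM at 10 µM, with LYZ at 2746.5 CPM on average at 0 µM. The part of the markers in the result was not tested.

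Members near target genes of AP-1, of SRF and of YAP, factors of growth and cytoskeletal signals, moved in both directions, and those named below are all rises. Of 41 members at 13 genes, 14 rose and 11 fell at 10 µM (median -0.02), with 7 falls without 10 µM replicate 1. FOSL1, itself an AP-1 subunit, had a member 2484 bp before its start with 13.3, 18.2 and 15.5 CPM at 0 µM, 17.5, 19.9 and 19.1 CPM at 2 µM, and 48.2 and 40.9 CPM at 10 µM (1.49, adjusted p = 1.03e-09). FOSL1 RNA rose by 3.43 at 10 µM (adjusted p = 3.84e-06). Members of PLAU, the urokinase gene, rose at 9342 bp (2.11, adjusted p = 3.22e-09) and at 14163 bp (2.15, adjusted p = 4.96e-08), IER2 rose at both doses (1.0, adjusted p = 0.000484, and 2.0, adjusted p = 1.3e-10), and so did the member of VCL, the focal adhesion protein vinculin (0.76, adjusted p = 0.00267, and 1.26, adjusted p = 3.58e-07).

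For p53 targets, 7 of 20 members rose and 7 fell at 10 µM (median 0.18), with members of 1 gene going both ways. The member 1914 bp before GADD45A, a DNA damage response gene, rose from 7.03, 8.57 and 7.58 CPM at 0 µM to 24.0 and 23.5 CPM at 10 µM (1.60, adjusted p = 8.52e-09). The member 11936 bp past its start fell from 17.9, 21.5 and 14.8 CPM to 2.01 and 2.83 CPM (-2.95, adjusted p = 8.25e-11). GDF15 had a member 1543 bp before its start that fell at 10 µM (-2.1, adjusted p = 6.57e-08), and the member of PHLDA3, an AKT inhibitor, rose (1.55, adjusted p = 6.53e-10).

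Among 38 members at 10 NF-kB and inflammatory genes, 16 rose and 11 fell at 10 µM (median 0.14). Of these, 10 rises and 9 falls went beyond 1 on the log2 scale, and the members of this list named here are all rises. The member 15355 bp past the start of NFKB1, the gene of the p50 subunit (chr4:102627804-102628304), had 2.18, 0.544 and 2.27 CPM, then 4.47, 6.53 and 3.96 CPM, then 20.8 and 20.4 CPM. Its log2 change was 3.75 at 10 µM (SE 0.31, adjusted p = 4.11e-12) and 1.63 at 2 µM (adjusted p = 0.00195), and the latter call was lost without 0 µM replicate 2. Members of the cytokine gene LIF (2.06, adjusted p = 8.37e-10), the inhibitor gene NFKBIA (1.78, adjusted p = 2.48e-09) and the chemokine gene CCL20 (1.57, adjusted p = 3.29e-09) also rose at 10 µM. The RNA rose for LIF (1.83, adjusted p = 0.000182) and fell for NFKB1 (-0.65, adjusted p = 0.0124), NFKBIA (-1.17, adjusted p = 0.000561) and CCL20 (-4.93, adjusted p = 2.5e-05). Of 8 members at interferon-stimulated and RNA-sensing genes, 2 rose and 5 fell (median -1.14), including those of ISG20, an exonuclease gene (-1.91, adjusted p = 4.68e-10), and USP18, a negative regulator of interferon signalling (-1.56, adjusted p = 2.3e-08). The rises numbered 1 without either 10 µM library.

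Oncofetal and imprinted genes had the highest share of rises among the lists with over 10 members, 14 of 26 at 10 µM with 6 falls (median 0.76), and 9 of the 26 members belong to GRB10. DLK1, a paternally expressed regulator of differentiation, had a member that rose by 1.12 at 2 µM (adjusted p = 0.00163) and by 2.61 at 10 µM (adjusted p = 1.72e-11), while its RNA fell (-3.66, adjusted p = 1.79e-06). The member near SGCE fell (-2.46 at 10 µM, adjusted p = 3.77e-13). For genes often methylated in liver cancer, 6 of 23 members rose and 12 fell (median -0.58). MGMT, the gene of a DNA repair enzyme, had a member 4495 bp before its start that went from 28.1, 40.2 and 27.5 CPM to 4.02 and 3.70 CPM at 10 µM (-3.05, adjusted p = 9.62e-13), with an RNA log2 change of -2.17 (adjusted p = 1.12e-05). The member 2737 bp before SFRP5, a WNT antagonist gene, fell as well (-2.6, adjusted p = 4.98e-11), and its RNA went from 1.43 ± 0.724 to 0.0413 ± 0.0343 CPM (SD, n = 3, adjusted p = 0.000282 in edgeR).

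Developmental regulators bound by polycomb had 6 rises and 9 falls among 21 members (median -0.15). The member of LHX2, a forebrain and liver stellate cell factor, rose (2.72, adjusted p = 1.53e-12) and that of PAX8, a thyroid and kidney factor, fell (-2.88, adjusted p = 5.32e-12). GATA5, an endoderm factor, had a member 11465 bp before its start that fell (-2.02, adjusted p = 1.66e-09) and one 13544 bp before that rose (1.02, adjusted p = 2.84e-06). Of 50 listed cancer-testis and germline genes, 2 had a member each. FMR1NB, whose member rose at both doses as given above, is not in this list. The listed one near PIWIL2 rose by 0.69 (adjusted p = 0.00335), and the other listed one did not pass. The PIWIL2 rise did not pass without 10 µM replicate 1. It also did not in a fit on the 0 and 10 µM libraries with the replicate number as a block.

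The 5 genes with the most members were TACC3, DNAJB12, FGFR3, PTMA and SDC1, and those of TACC3 closed together. TACC3 encodes a mitotic spindle protein and has 19 members over chr4:1746131-1768957. Their summed level was 439, 375 and 412 CPM at 0 µM, 405, 446 and 384 CPM at 2 µM, and 224 and 197 CPM at 10 µM. The 0 and 2 µM libraries overlapped, and at 10 µM 17 members fell and none rose, with log2 changes of -2.02 to -0.34 over all 19. TACC3 RNA fell by 2.88 on the log2 scale (adjusted p = 2.42e-06). The 16 members of the adjacent growth factor receptor gene FGFR3 (chr4:1769190-1810333) held 343, 319 and 336 CPM, then 287, 328 and 302 CPM, then 176 and 170 CPM, and 12 fell and 1 rose at 10 µM. That rise did not pass without 10 µM replicate 2 or without any 1 of the 0 µM libraries. FGFR3 RNA fell by 2.56 on the log2 scale (adjusted p = 3.48e-06).

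The members of the other 3 genes moved in both directions, while the RNA of each gene passed at 10 µM in edgeR. RNA rose for DNAJB12 (0.94, adjusted p = 0.00296) and fell for PTMA (-1.27, adjusted p = 0.00211) and SDC1 (-1.60, adjusted p = 4.83e-05). Of 17 members at DNAJB12, a chaperone gene, 7 rose and none fell at 2 µM, and 5 rose and 4 fell at 10 µM (2 falls without 0 µM replicate 2). At PTMA 4 of 15 rose and 6 fell (2 rises without 10 µM replicate 1), and at SDC1, the syndecan gene, 4 of 14 rose and 6 fell.

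The loci that follow were chosen after their values were seen. At GRB10, an imprinted adaptor of insulin signalling, all 9 members (chr7:50589019-50838419) rose at 10 µM, with summed levels of 42.7, 37.0 and 47.7 CPM at 0 µM, 59.1, 67.4 and 66.1 CPM at 2 µM, and 211 and 194 CPM at 10 µM. The 3 doses did not overlap. The member 31357 bp before its start (chr7:50824819-50825319) had 4.12, 3.26 and 4.17 CPM, then 5.50, 8.25 and 9.0 CPM, then 33.4 and 39.6 CPM, a log2 change of 3.26 at 10 µM (SE 0.21, adjusted p = 3.21e-14). GRB10 RNA rose from 30.5 to 129 and 603 CPM (2.08, adjusted p = 0.00888, and 4.30, adjusted p = 4.31e-06). At 2 µM 4 of its members rose, and 2 did without 0 µM replicate 2 or 2 µM replicate 2, and 1 without 2 µM replicate 3.

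Near BHLHE40-AS1, 11 of 12 members rose at 10 µM and none fell, with summed levels of 118, 132 and 131 CPM at 0 µM and 303 and 269 CPM at 10 µM. BHLHE40-AS1 RNA did not pass at 10 µM against 0 µM (1.28, adjusted p = 0.0741 in edgeR). The 11 members past MIR21, a microRNA gene (chr17:59843002-59855593), were more open in every treated library than in any untreated one, at 210, 200 and 259 CPM, then 505, 522 and 383 CPM, then 371 and 526 CPM. At 2 µM 5 of them rose and at 10 µM 7, and none fell in either (1 fell at 10 µM without 10 µM replicate 2). At DHRS2, a reductase gene, 8 of 10 members fell at 10 µM, with sums of 375, 255 and 335 CPM at 0 µM and 83.7 and 168 CPM at 10 µM, and the RNA fell by 3.26 on the log2 scale (adjusted p = 1.92e-06).

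The 11 members at MIR3648-2 (chr21:8988670-8996133) lie among ribosomal DNA-like copies, so reads may be shared with other copies and their values are uncertain. They held 361, 338 and 559 CPM at 0 µM, 1107, 1289 and 1031 CPM at 2 µM, and 362 and 940 CPM at 10 µM. All 11 rose at 2 µM, also with any 1 library left out, and 9 did with DESeq2. At 10 µM the libraries disagreed: 6 rose, but 0 rose and 3 fell without 10 µM replicate 2, 11 rose without 10 µM replicate 1, 10 without 0 µM replicate 3, 2 without 0 µM replicate 1 and 1 without 0 µM replicate 2.

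**Figure D4:**
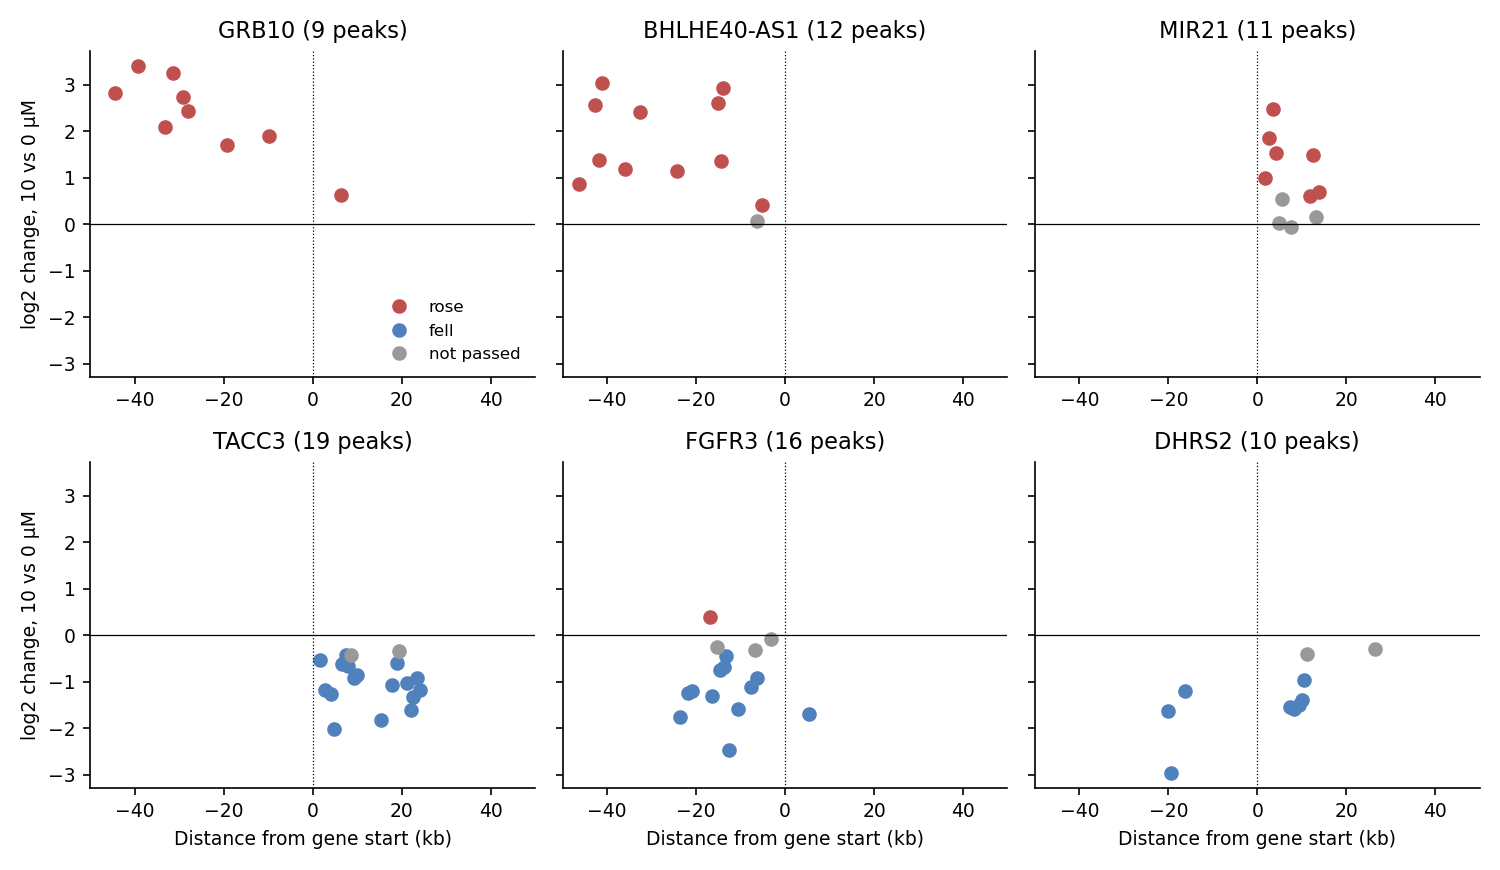
Log2 change at 10 µM against 0 µM (y axis) of each member of 6 loci by its distance from the annotated start in kb (x axis, negative before the start), with rises red, falls blue and members that did not pass grey. All 9 members of GRB10 and 11 of 12 of BHLHE40-AS1 rose, 17 of 19 of TACC3, 12 of 16 of FGFR3 and 8 of 10 of DHRS2 fell, and 7 of 11 of MIR21 rose.

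The share of neighbouring member pairs that changed in the same direction was lower at wider spacing. Of 441 pairs less than 1000 bp apart in which both were called at 10 µM, 87.5% had the same direction (172 pairs rose, 214 fell). The share was 68.6% of 659 pairs at 1000 to 5000 bp, 60.7% of 707 pairs at 5000 to 20000 bp and 50.5% of 392 pairs at 20000 to 50000 bp. At 2 µM it was 95.1% of 81, 79.2% of 106, 69.4% of 98 and 68.5% of 54 pairs. At 10 µM rises made up 49.5% of all member calls, so unrelated members would agree in about that share. Peaks less than 1000 bp apart can share fragments, and no test was made. Of the 1908 genes with at least 2 members, 564 had both a rise and a fall at 10 µM, 586 had rises without a fall, 609 falls without a rise and 149 no call.

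RNA of the annotated gene was tested for 6166 members. Beside members that rose at 10 µM (1993 members, 1470 genes), RNA rose for 716 (35.9%) and fell for 467 (23.4%), against 23.0% and 25.1% of all 18999 genes tested. Beside members that fell (2241 members, 1551 genes), RNA rose for 362 (16.2%) and fell for 982 (43.8%). Beside the 1932 members that did not pass, RNA rose for 474 (24.5%) and fell for 591 (30.6%). These shares are counted over members, while those of all genes are counted over genes. Median RNA log2 changes were 0.25, -0.53 and -0.11 beside members that rose, fell and did not pass. Members that share a gene count its RNA more than once, and no test was made over them. The same shares over all other peaks were 36.8% and 21.6% beside rises and 16.2% and 46.7% beside falls, close to those of the members. Beside falls, the share with falling RNA was 52.1% under 5 kb, 42.6% at 5 to 20 kb and 38.5% at 20 to 50 kb, and beside rises the share with rising RNA was 36.5%, 36.1% and 35.2%.

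At 2 µM few genes passed in the RNA (3.22% up and 1.06% down). RNA rose for 62 of 879 members that rose (7.05%) and fell for 7 (0.796%), and rose for 9 of 605 members that fell (1.49%) and fell for 26 (4.30%). Beside the 4682 members that did not pass, RNA rose for 186 (3.97%) and fell for 106 (2.26%). LUCAT1, a stress-induced long non-coding RNA, was among those up in both assays, with a member 17712 bp before its start at 5.34, 6.25 and 3.98 CPM at 0 µM, 9.97, 14.4 and 9.82 CPM at 2 µM, and 26.3 and 16.1 CPM at 10 µM. The doses did not overlap (1.07, adjusted p = 0.00198, and 2.03, adjusted p = 5.23e-09), and its RNA rose by 2.55 (adjusted p = 0.00202) and 5.32 (adjusted p = 6.63e-07). The member 44522 bp past the start of TPBG, a trophoblast glycoprotein gene, rose by 3.44 at 10 µM (adjusted p = 1.82e-09) with RNA up by 4.61 (adjusted p = 9.78e-07). SULT2A1, a bile acid sulfotransferase gene, changed far more in RNA than at its member, with an RNA log2 change of -7.75 (adjusted p = 6.33e-08) and a member at 13.8, 17.1 and 15.5 CPM at 0 µM and 11.8 and 9.35 CPM at 10 µM (-0.54, adjusted p = 0.0203), a call lost without 0 µM replicate 2 or 10 µM replicate 2. The call was also lost in a fit on the 0 and 10 µM libraries with the replicate number as a block.

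**Figure D5:**
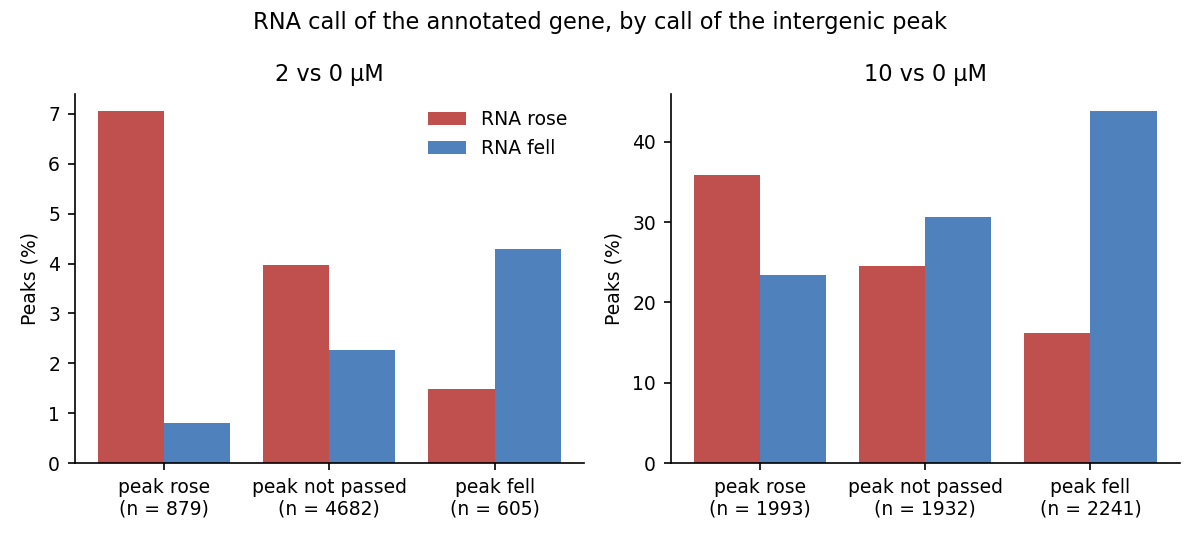
Percent of members (y axis) whose annotated gene rose (red) or fell (blue) in RNA, for members that rose, did not pass or fell in ATAC-seq, at 2 µM and at 10 µM against 0 µM, each panel with its own scale. At 10 µM the RNA rose beside 35.9% of members that rose and 16.2% of those that fell, and fell beside 23.4% and 43.8%.

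BCL2A1, an anti-apoptotic BCL2 relative, had 2 members that moved in opposite directions at 10 µM, and SQOR, a mitochondrial sulfide oxidase gene, had none. The member 22548 bp past the BCL2A1 start (chr15:79948121-79948621) had 5.58, 4.21 and 4.17 CPM at 0 µM, 4.12, 4.13 and 3.14 CPM at 2 µM, and 8.32 and 9.13 CPM at 10 µM (0.92, adjusted p = 0.00299). The member 7759 bp before it (chr15:79978955-79979455) had 19.4, 17.0 and 19.3 CPM, then 15.8, 16.5 and 15.8 CPM, then 6.57 and 9.13 CPM (-1.27, adjusted p = 2.07e-06). At 2 µM neither passed (adjusted p = 0.45 and 0.412). The rise at 10 µM did not pass in a fit on the 0 and 10 µM libraries with the replicate number as a block. BCL2A1 RNA rose from 1.01 CPM at 0 µM to 7.21 CPM at 2 µM and 10.7 CPM at 10 µM (2.82, adjusted p = 0.0122, and 3.39, adjusted p = 0.000268).

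The 5 members with the highest mean at 0 µM were near CYP24A1, MIR3193, PPIF, JPH4 and INHA. The one 33259 bp past the start of CYP24A1, the vitamin D-degrading enzyme, had 95.6, 146 and 124 CPM at 0 µM and 131 and 122 CPM at 10 µM and did not pass (0.05, adjusted p = 0.791). The other 4 fell at both doses. At 10 µM the changes were -1.24 at MIR3193 (adjusted p = 3.55e-08), -2.62 at PPIF, a mitochondrial cyclophilin gene (adjusted p = 9.37e-15), -2.09 at JPH4 (adjusted p = 7.22e-12) and -2.04 at INHA, the inhibin subunit gene (adjusted p = 9.23e-13).

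Just inside the distance limit were members of LINC01164 at 49907 bp (0.31 at 10 µM), DCLK3 at 49986 bp (3.45) and SKA1 at 49997 bp (-1.11). Just outside were peaks of CTIF at 50006 bp (-0.56), LRP1B at 50106 bp (-1.14) and SEPTIN10 at 50114 bp (-0.69).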

How the data were processed

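ATAC-seq (8 libraries) and total RNA-seq (9 libraries) of HepG2 cells were used as raw counts per peak and per gene, as deposited by the authors. The submitters' processing notes name HISAT2 2.2.1, HTSeq 2.0.4, DiffBind 3.12.0, DESeq2 1.42.1 and the build hg38. The peak caller and the use of strand in counting RNA are, for these data, not given in the sources used here. Thus antisense and overlapping genes are uncertain. Of 63621 consensus peaks, 5249 had no counts and were not used. Raw counts moved with depth and were scaled by TMM. Scaling of this kind does not show a gain or loss shared by most peaks or genes.

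Members were the peaks annotated "Distal Intergenic" with a distance under 50000 bp. The members and gene lists were chosen with earlier results of these data known. The test was edgeR 4.0.16 (R 4.3.3) with the quasi-likelihood test, fitted once for ATAC-seq and once for RNA with every library, filterByExpr (which kept all 58372 peaks and 18999 of 63187 genes), and Benjamini-Hochberg adjustment over all features. Rose and fell mean an adjusted p under 0.05. Log2 changes carry a prior count of 0.125. Per-library measures were compared by exact permutation over libraries. The scripts were tested on simulated data. Alternatives were total-count scaling, DESeq2 1.42.0, another count filter, fits on 2 doses, a replicate block and leaving out each library. Tables and plots used Python 3.11.15, pandas 2.3.3, numpy 2.4.6 and matplotlib 3.10.9.

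Peaks were named by rule: per comparison and direction the 5 largest called changes without overlap and at least 5 CPM in the higher group, up to 3 called members per gene list, members of BCL2A1 or SQOR, the 5 highest at 0 µM, the 5 with RNA called the same way at the lowest RNA p, the 3 on each side of the distance limit, and the 5 genes with most members. Part of these is printed. The 5 sequences and their windows come from the RefSeq table of GRCh38.p14, and windows on chromosome 8 were not used. 1 of the 3 largest falls among the windows is not reported here.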

Additional observations from a re-analysis of the deposited data

How the results depend on the processing

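Of 159 changes of named members, recomputed under the alternatives 2340 times in all, 2276 kept their direction and side of the threshold, 64 (in 23 changes) no longer passed and 0 reversed. The counts at 2 µM against 0 µM were the least stable. DESeq2 gave 731 rises and 569 falls, and leaving out each library gave 660 to 1274 rises and 422 to 1256 falls. With the replicate number as a block, 1108 rose and 671 fell, and with the block and only the 0 and 2 µM libraries, a fit chosen after seeing the data, 1272 rose and 1291 fell. At 10 µM against 0 µM, DESeq2 gave 2612 rises and 2780 falls, total-count scaling 2783 and 3182, the replicate block 2792 and 2888, and leaving out each library 2681 to 2935 and 2604 to 3133. At 10 µM against 2 µM, total-count scaling gave 2361 and 3090 and DESeq2 2273 and 2372. Total-count scaling moved the median change of all peaks at 10 µM against 0 µM from 0.05 to -0.02. Between 0 and 2 µM, libraries with the same number did not deviate together (correlations of -0.0269 to 0.126, against -0.100 to 0.134 for other pairs). The numbers were therefore not read as pairs. The ranges over all doses (-0.147 to 0.126, against -0.181 to 0.181) cannot decide this. With 2 libraries at 10 µM, their deviations from the dose mean mirror each other. The 2 µM replicates 1 and 2 were the shallowest libraries, and with 2 libraries at 10 µM the spread of that dose rests on a single difference.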
